A study of Mus musculus with 6 samples.

Results

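The small leucine-rich proteoglycans are secreted matrix proteins whose cores are built from repeats rich in leucine. They were described here as 10 genes, Bgn, Dcn, Aspn, Prelp, Fmod, Omd, Lum, Kera, Ogn and Chad, taken by gene symbol from the 54532 named genes of the deposited count table. The genes were proposed with the same wild-type and knockout counts in view, because they did not all differ in the same direction, so their levels, fold changes and errors are given as a description, without p-values. The series sequenced RNA from C2C12 cells, an established mouse myoblast line, as 3 wild-type and 3 Gmppb-KO libraries, by their labels. Gmppb encodes the catalytic subunit that makes GDP-mannose, the mannose donor for protein glycosylation. Per the labels, the wild-type cells had no treatment. The Gmppb-KO cells had received the Cas9 plasmids PX458-GFP and PX459-puromycine with guides to exons 1 and 5 of Gmppb, were selected in puromycin at 4 µg per ml, and were grown up from single cells. Both genotypes had been in culture for 2 days at lysis. The labels leave unsaid whether the 3 knockout libraries represent 1 clone or several, and which medium was used. They also do not say that replicates were separate cultures, so errors and p-values reflect no more than the spread among the samples at hand, and that may be technical. Values by library follow the order of replicates 1, 2 and 3.

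Small leucine-rich proteoglycans coat collagen fibrils and set their spacing and diameter, and several hold growth factors such as TGF-beta in the matrix. Most carry sugar chains: biglycan and decorin carry chondroitin or dermatan sulfate, whereas fibromodulin, lumican, keratocan and osteomodulin belong to the group that can carry keratan sulfate. In skeletal muscle, decorin and biglycan lie in the connective tissue around the fibres, where interstitial fibroblasts are a main source of decorin.

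The libraries held between 16011021 and 18566759 counts in named genes. Gmppb itself ranged from 18.1 to 23.9 CPM (the usual edgeR unit, counts scaled to library size) in wild-type libraries and from 13 to 20.6 CPM in the knockouts (log2 fold change -0.34 ± 0.26 SE, edgeR adjusted p = 0.459), so the gene count did not separate the genotypes. Gmppb-KO replicate 3 lay farthest from the wild-type libraries on the first principal component, which held 61.1% of the variance. Of 7 myoblast markers, 4 fell and 0 rose by the edgeR test, where 3.27% of all tested genes were called lower. Myod1 and Pax7 are among those that fell. Both passed the low-count filter only through the wild-type libraries and so had to differ. Myod1 went from 152 to 163 CPM in wild-type libraries to between 0.326 and 0.560 CPM in Gmppb-KO libraries. Myf5, of the same list, had 26.7, 29.4 and 12.9 CPM in the wild-type set and 29.2, 48.7 and 93.7 CPM in the knockout set. Its groups overlapped, and it was not called (edgeR adjusted p = 0.168). The summed myoblast list ranged from 4373 to 6089 CPM in wild-type and from 2478 to 4407 CPM in Gmppb-KO libraries. Most of that sum is Des, the gene of the filament protein desmin, which was not called (edgeR adjusted p = 0.497).

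Of the 10 genes, 6 passed the low-count filter and entered the edgeR fit of 12786 genes. Aspn, Prelp and Omd are so low in wild-type libraries that they could pass only through the Gmppb-KO libraries and therefore had to differ. In the fit, 5 of the 6 (Dcn, Aspn, Prelp, Omd and Ogn) were called higher in Gmppb-KO and 1 (Bgn) lower, at an adjusted p under 0.05. Across all tested genes 5.59% were called, 2.32% higher and 3.27% lower. The 3 and 3 libraries did not overlap for any of the 6, whereas across all tested genes 13.1% lay wholly higher and 13% wholly lower in Gmppb-KO. Because the genes were taken from this contrast, nothing is read from these counts.

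**Figure D1:**
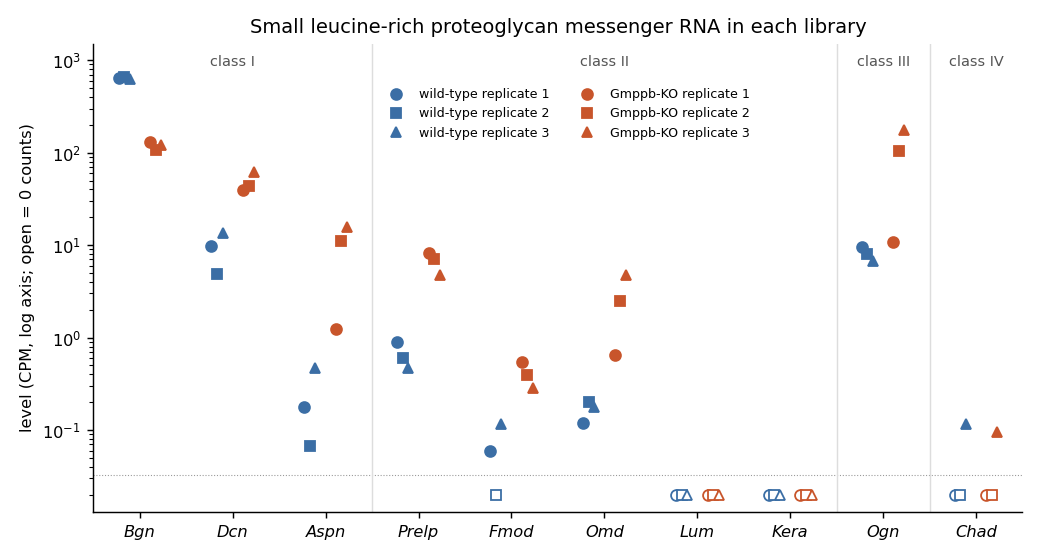
Level of each of the 10 genes in each library, in CPM on a log axis, grouped by structural class; blue symbols are wild-type and orange symbols Gmppb-KO libraries, and open symbols at the bottom mark 0 counts. Bgn is the only gene with all Gmppb-KO libraries below the wild-type libraries, Lum and Kera are at 0 throughout, and Ogn, Aspn and Omd are widely spread among Gmppb-KO libraries.

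Biglycan, encoded by Bgn (ENSMUSG00000031375, mm10 chrX:73483602-73495933, plus strand), is a class I member that binds collagen and TGF-beta and, as a free molecule, can signal through Toll-like receptors. Bgn had 646, 662 and 624 CPM in the wild-type set and 132, 108 and 121 CPM in the knockout set. Every Gmppb-KO library was below every wild-type library, and both groups were narrow. The means were 644 ± 19 and 120.3 ± 12 CPM (SD, n = 3 per genotype), which is 5.36-fold lower in Gmppb-KO (log2 fold change -2.42 ± 0.20 SE). Over 14 alternative fits the log2 fold change of Bgn ran from -2.58 to -2.25, and all kept the call. That call is a description, because Bgn was chosen with this contrast in view. Its nearest tested neighbours on chromosome X did not pass the test: Haus7, 24.6 kb away, had a log2 fold change of 0.14 (edgeR adjusted p = 0.725), and Dusp9, 143 kb away, one of -0.08 (adjusted p = 0.897).

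Decorin, the closest relative of biglycan and the class I member that decorates type I collagen fibrils, stood on the other side. Dcn (ENSMUSG00000019929, mm10 chr10:97479609-97518143, plus strand) had 9.80, 4.86 and 13.6 CPM in the wild-type set. It had 39.1, 43.4 and 62.3 CPM in the knockout set. All Gmppb-KO libraries were above all wild-type libraries, and the wild-type libraries varied more in proportion, with a 2.81-fold range against 1.60-fold among Gmppb-KO libraries. The means were 9.43 ± 4.40 and 48.3 ± 12.4 CPM (SD, n = 3 per genotype), 5.11-fold higher in Gmppb-KO (log2 fold change 2.35 ± 0.39 SE). The call was lost without wild-type replicate 1, where the log2 fold change was 2.38. In bulk RNA, more cells that make a transcript and more transcript per cell cannot be told apart, and this holds for every value below.

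Asporin, osteomodulin (encoded by Omd) and mimecan (encoded by Ogn) lie side by side on the plus strand of mouse chromosome 13, downstream of Ecm2, another gene of the family. Asporin is a class I member that lacks the usual chain attachment site and binds collagen and TGF-beta, osteomodulin is a keratan sulfate proteoglycan known from bone, and mimecan is the class III member also called osteoglycin. Their promoters are shown with that of Bgn, the gene that differed in the opposite direction, so that the neighbours can be compared in sequence. Each runs from 250 bases before to 50 bases after the annotated start (RefSeq, GRCm38.p6, all on the plus strand), at chr13:49544193-49544492 for Aspn, chr13:49582212-49582511 for Omd, chr13:49607765-49608064 for Ogn and chrX:73483351-73483650 for Bgn. Capitals mark the E-box CANNTG, the core bound by Myod1 and other basic helix-loop-helix factors, and the TATA box TATAAA, each searched on both strands.
Aspn promoter: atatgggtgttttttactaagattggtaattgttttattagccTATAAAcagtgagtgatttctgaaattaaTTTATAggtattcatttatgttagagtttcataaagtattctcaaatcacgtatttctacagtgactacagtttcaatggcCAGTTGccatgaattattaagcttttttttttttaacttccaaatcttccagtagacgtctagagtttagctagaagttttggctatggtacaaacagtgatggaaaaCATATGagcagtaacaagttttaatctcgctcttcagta
Omd promoter: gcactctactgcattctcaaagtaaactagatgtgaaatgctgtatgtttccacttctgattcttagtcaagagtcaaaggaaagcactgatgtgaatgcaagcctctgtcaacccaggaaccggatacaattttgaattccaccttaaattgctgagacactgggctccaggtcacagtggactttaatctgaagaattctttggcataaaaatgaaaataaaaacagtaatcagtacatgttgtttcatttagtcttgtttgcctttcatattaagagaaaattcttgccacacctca
Ogn promoter: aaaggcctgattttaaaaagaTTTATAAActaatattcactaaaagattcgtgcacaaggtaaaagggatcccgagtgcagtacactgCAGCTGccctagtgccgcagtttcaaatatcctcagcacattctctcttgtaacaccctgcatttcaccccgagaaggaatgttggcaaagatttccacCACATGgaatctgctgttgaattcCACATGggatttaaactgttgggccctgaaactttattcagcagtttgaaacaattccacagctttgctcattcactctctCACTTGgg
Bgn promoter: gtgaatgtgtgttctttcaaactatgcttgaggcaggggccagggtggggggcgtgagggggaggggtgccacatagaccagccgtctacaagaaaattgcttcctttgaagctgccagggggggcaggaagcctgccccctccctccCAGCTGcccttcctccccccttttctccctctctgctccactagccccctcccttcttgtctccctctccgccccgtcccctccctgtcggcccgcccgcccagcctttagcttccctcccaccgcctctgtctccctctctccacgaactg
The window of Ogn holds 4 E-boxes, that of Aspn 2, that of Bgn 1 and that of Omd 0, and at least 1 E-box is found in 72.3% of 32851 mouse promoters of this length. The form CAGCTG, which Myod1 prefers and which is counted within the E-boxes, occurs once each in the windows of Ogn and Bgn and in 16.3% of all promoters. It lies 162 bases before the start in Ogn and 102 bases before the start in Bgn. TATAAA occurs in the windows of Aspn and Ogn, with 2 matches each that overlap on opposite strands in Ogn, and in 13.6% of all promoters. Base composition separated the neighbours from Bgn: the G and C content was 31.0% for Aspn, 37.7% for Omd and 42.3% for Ogn against 63.7% for Bgn, with a median of 52.7% over all promoters. The Smad box CAGAC, found in 49.6% of all promoters, had no match in any of the 4 windows. The TEAD core GGAATG, found in 14.7%, had 1 match in the window of Ogn, 86 bases before the start. These matches describe letters in a window and not binding. Of the 10 genes, 8 had an entry in the promoter table; Dcn and Lum had none.

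Ogn (ENSMUSG00000021390, mm10 chr13:49608046-49624501) had 9.5, 8.03 and 6.67 CPM in the wild-type set, and 10.7, 103 and 175 CPM in the knockout set. Gmppb-KO replicate 1 thus stood just above the wild-type libraries, at 1.33 times their mean, while replicate 3 stood at 21.6 times that mean. The means were 8.07 ± 1.42 and 96.3 ± 82.2 CPM (SD, n = 3 per genotype), giving a log2 fold change of 3.58 ± 0.83 (SE) that rests on Gmppb-KO replicates 2 and 3. Without Gmppb-KO replicate 1 it was 4.01, and without replicate 3 it was 2.77.

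Aspn (ENSMUSG00000021388, mm10 chr13:49544443-49567565) had 3, 1 and 8 counts in the wild-type set and 23, 199 and 337 counts in the knockout set. In CPM these were 0.178, 0.0675 and 0.468 against 1.25, 11.1 and 15.9. All Gmppb-KO libraries were above the wild-type libraries, and Gmppb-KO replicate 1 was again the lowest of its group. The log2 fold change was 5.24 ± 1.02 (SE), or 37.8-fold, between means of 0.238 ± 0.207 and 9.43 ± 7.47 CPM (SD, n = 3 per genotype), and it was 4.58 without Gmppb-KO replicate 3. A level of 3 counts corresponds to between 0.141 and 0.202 CPM in these libraries, so the wild-type mean of Aspn is close to what a handful of reads gives.

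Omd (ENSMUSG00000048368, mm10 chr13:49582462-49592822) had 2, 3 and 3 counts in the wild-type set and 12, 44 and 100 counts in the knockout set, or 0.119, 0.202 and 0.176 CPM against 0.653, 2.46 and 4.71 CPM. The wild-type libraries were all at or below 3 counts, and the Gmppb-KO libraries were all above them. The log2 fold change was 3.94 ± 0.81 (SE), between means of 0.166 ± 0.0427 and 2.61 ± 2.04 CPM (SD, n = 3 per genotype), and it was 3.14 without Gmppb-KO replicate 3. The calls of Ogn, Aspn and Omd were each lost in limma voom and without some libraries. That of Ogn was also lost under library size scaling, at a log2 fold change of 3.83, and with a replicate block, at 3.0. Without Gmppb-KO replicate 2 all 3 were lost, leaving 2 of the 10 genes called higher. The count of genes called higher was 3 without Gmppb-KO replicate 3, 3 without wild-type replicate 3, 2 without wild-type replicate 2 and 1 without wild-type replicate 1.

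The spread among Gmppb-KO libraries was wide for these neighbours. The ratio of the highest to the lowest Gmppb-KO library was 16.3 for Ogn, 12.7 for Aspn and 7.22 for Omd. Among 11775 genes whose knockout mean reached 1 CPM, the median ratio was 1.64, and these genes ranked 63, 109 and 320 from the top. The other members were near or below that median, at 1.71 for Prelp, 1.60 for Dcn and 1.22 for Bgn. Wide spread on chromosome 13 was not confined to the family. Within 200 kb, Nol8 had a ratio of 11.5 and Tes3-ps one of 15.8, the latter on 3, 46 and 36 counts. Cenpp, Iars, Fgd3, Bicd2 and Ippk, also there, lay between 1.17 and 1.95. Ogn, Aspn and Omd all had Gmppb-KO replicate 1 lowest and replicate 3 highest, an order shared by 3299 of the 11775 genes. What this difference between libraries adds to the group comparison was not tested.

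**Figure D2:**
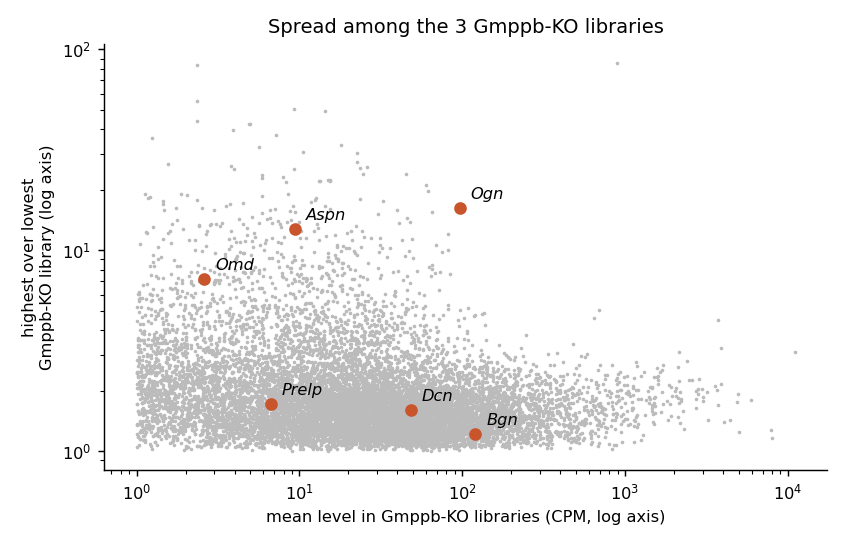
Ratio of the highest to the lowest Gmppb-KO library against the mean level in those libraries, both on log axes; each grey point is 1 gene whose mean reached 1 CPM, and the orange points are the 6 proteoglycan genes that were tested. Ogn, Aspn and Omd lie high in the cloud at ratios of 16.3, 12.7 and 7.22, whereas Prelp, Dcn and Bgn lie between 1.22 and 1.71.

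The neighbourhood on chromosome 13 was read gene by gene. Ecm2, which encodes a matrix protein related to decorin, had 2, 1 and 0 counts in the wild-type set and 15, 18 and 23 counts in the knockout set. The ratio of summed counts, scaled to library size, was 15.8 with a 95% counting interval of 5.15 to 79.1, and Ecm2 passed the edgeR test (adjusted p = 0.0217, range 0.0141 to 0.0889 over the alternatives), a call lost without any 1 library other than Gmppb-KO replicate 1. Ecm2 passed the low-count filter only through the Gmppb-KO libraries and so had to differ, and its call is a description. Its Gmppb-KO libraries differed by only 1.33-fold, unlike those of Aspn, Omd and Ogn. All 4 genes lie within the span of Cenpp, a centromere protein gene on the minus strand. Cenpp went from 6.24 ± 0.455 to 11.3 ± 0.956 CPM (SD, n = 3 per genotype) and did not pass the test (log2 fold change 0.86 ± 0.26 SE, edgeR adjusted p = 0.114). Annotated exons of Cenpp share 7 bases with Aspn, 0.297% of its exon bases, and 0 with Omd and Ogn. Nol8, 28.6 kb past Ogn, had 22, 99 and 292 counts in the knockout set against 61, 40 and 88 in the wild-type set, the same order among Gmppb-KO libraries without a group difference that passed the test (edgeR adjusted p = 0.509). Its log2 fold change was 0.84. Of further tested protein-coding genes within 200 kb, Fgd3 and Bicd2 lay wholly higher in Gmppb-KO, at log2 fold changes of 0.52 and 0.96. Ippk, Tes3-ps and Iars overlapped between groups, at 0.84, 0.18 and 0.15. None of these was called (edgeR adjusted p from 0.173 to 0.909).

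**Figure D3:**
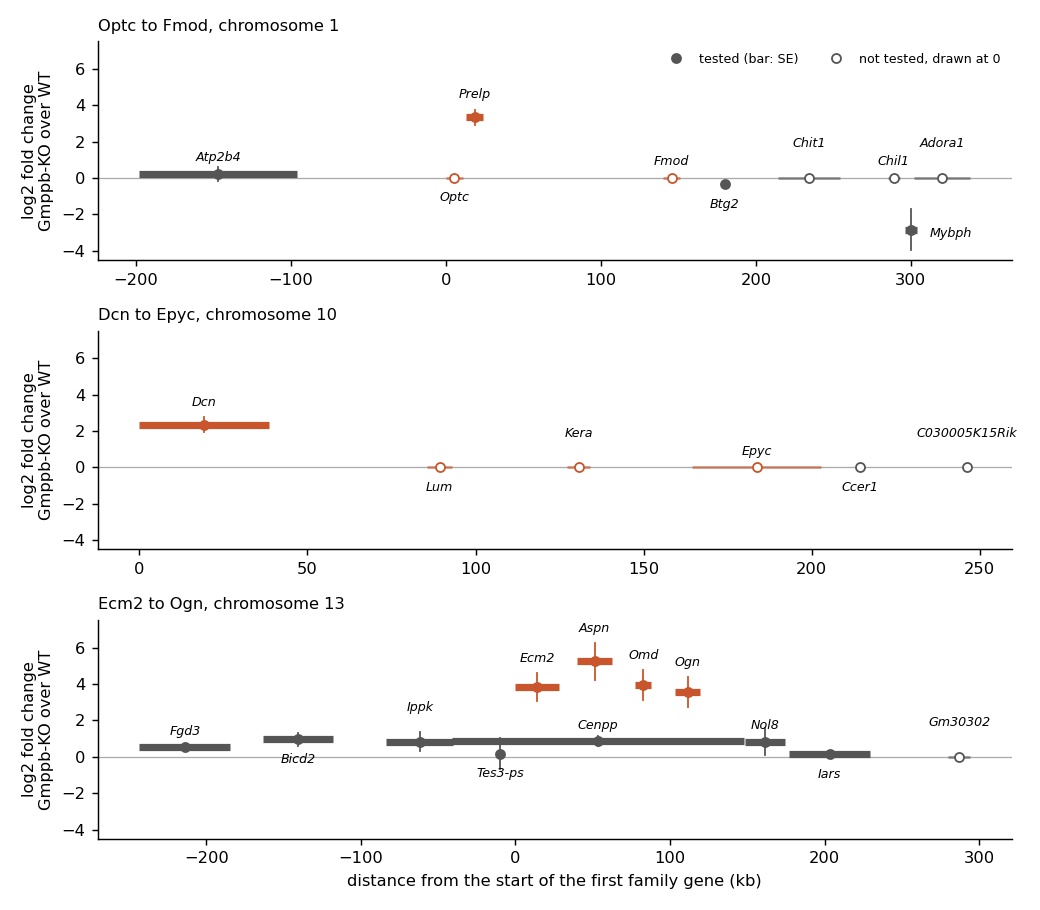
Log2 fold change of Gmppb-KO over wild-type for family genes (orange) and other genes (grey) along 3 chromosome clusters, against the distance in kilobases from the start of the first family gene; thick bars span each gene, thin vertical bars are SE, and open symbols at 0 are genes not tested. On chromosome 13 the 4 family genes stand between 3.58 and 5.24 above Cenpp at 0.86, and on chromosome 10 Dcn at 2.35 is followed by Lum, Kera and Epyc, which were not tested.

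The cluster on chromosome 10 behaved differently along its length. Lumican, keratocan and epiphycan, encoded by Lum, Kera and Epyc within 203 kb of the start of Dcn, had 0 counts in all 6 libraries, which allows up to 3 counts, or 0.141 to 0.202 CPM, in a library. Dcn was thus the only detected gene of this cluster in either genotype. Lumican and keratocan are the keratan sulfate proteoglycans that keep the cornea clear. The nearest tested genes outside, Btg1 at 857 kb and Atp2b1 at 1396 kb, did not pass the test (log2 fold changes -0.37 and 0.47, edgeR adjusted p = 0.352 and 0.648).

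On chromosome 1 lie the class II genes Prelp and Fmod. Prelp (ENSMUSG00000041577, mm10 chr1:133910304-133921414, minus strand) encodes prolargin, which anchors basement membranes to the collagen beneath them. It had 0.891, 0.607 and 0.468 CPM in the wild-type set, and 8.21, 7.0 and 4.81 CPM in the knockout set. The groups were far apart and, unlike on chromosome 13, Gmppb-KO replicate 3 was the lowest of its group. The means were 0.655 ± 0.215 and 6.67 ± 1.73 CPM (SD, n = 3 per genotype), giving a log2 fold change of 3.33 ± 0.43 (SE) or 10.1-fold, and all 14 alternative fits kept the call, between 3.06 and 3.62. Prelp passed the low-count filter only through the Gmppb-KO libraries and so had to differ, and its call is a description. The antisense gene Gm15851 shares 350 exon bases with Prelp, 9.68% of its exon bases, and reads there cannot be assigned without the strand, whose use in the counting is not given in the sources used here.

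Fibromodulin, a class II member that steers collagen fibril assembly in tendon, was near the limit of detection. Fmod (ENSMUSG00000041559, mm10 chr1:134037254-134048277, plus strand) had 1, 0 and 2 counts in the wild-type set and 10, 7 and 6 counts in the knockout set. It did not pass the low-count filter, and the ratio of summed counts scaled to library size was 6.51 with a 95% counting interval of 1.97 to 33.8. Where looser filters let Fmod be fitted, in DESeq2 and with every gene of a count sum above 1, it was not called. Opticin, encoded by Optc between Atp2b4 and Prelp, had 4, 0 and 3 counts against 7, 7 and 3, so the groups overlapped. Btg2, the next tested gene past Fmod, had a log2 fold change of -0.36 and did not pass the test (edgeR adjusted p = 0.361). Chondroadherin, the class IV cartilage member encoded by Chad (ENSMUSG00000039084, mm10 chr11:94565047-94569127), had 2 counts in 1 library of each group and 0 in the others, and no fold is given. It lies inside Acsf2 on the opposite strand with 0 shared exon bases, and Acsf2 and the flanking Rsad1 and Lrrc59 did not pass the test (log2 fold changes -0.24, 0.73 and 0.13, edgeR adjusted p = 0.708, 0.195 and 0.743).

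Per kilobase of gene length, the family differed in make-up between the genotypes. The authors' FPKM divide by the deposited gene length. That length equals all annotated exon bases of a gene, 6099 for Bgn and 2566 for Ogn, so rankings between genes depend on it. In FPKM the 10 genes summed to 113, 117 and 107 in the wild-type set and to 35.6, 71.1 and 104 in the knockout set. The Gmppb-KO sums were all lower, though that of replicate 3 nearly reached the wild-type range. Bgn made up 94.8%, 96.2% and 94.9% of the family sum in the wild-type set and 60.5%, 24.1% and 18.2% in the knockout set. Biglycan transcript was therefore almost the whole family in every wild-type library and less than that in each Gmppb-KO library. Ogn took 2.41% to 3.31% in wild-type libraries, and 11.7%, 55.0% and 62.5% in the knockout set. By FPKM, Ogn was thus the highest member in Gmppb-KO replicates 2 and 3, and Bgn in replicate 1. In CPM, without the length divisor, Bgn was above Ogn in replicate 2 as well, at 108 against 103 CPM. The mean CPM over Gmppb-KO libraries was also higher for Bgn, at 120.3 against 96.3. Dcn took 0.737% to 2.17% in wild-type libraries, and 18.7%, 10.1% and 9.81% in the knockout set. In mean FPKM the order in wild-type libraries was Bgn (107), Ogn (3.20), Dcn (1.63), Prelp (0.184), Aspn (0.101) and Omd (0.0749). The ranges of Ogn, 2.59 to 3.76, and Dcn, 0.866 to 2.32, did not overlap, whereas Prelp overlapped with Aspn and Aspn with Omd. In Gmppb-KO libraries the order by mean FPKM was Ogn (36.0), Bgn (19.2), Dcn (8.01), Aspn (3.85), Prelp (1.80) and Omd (1.12). The wide FPKM range of Ogn, from 4.15 to 64.8, spans those of both Bgn and Dcn. Prelp and Omd both lay within or beside the range of Aspn, 0.528 to 6.43.

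**Figure D4:**
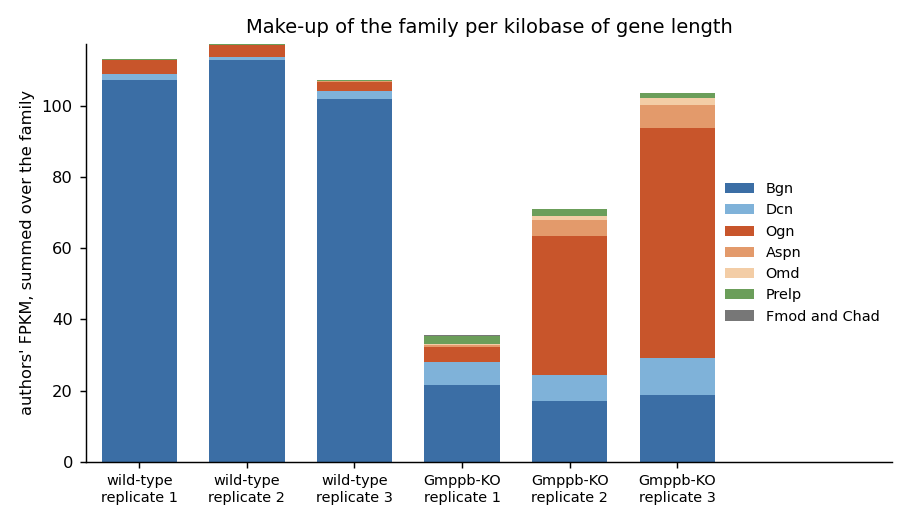
Summed FPKM of the family in each library, stacked by gene on a linear axis that starts at 0. Bgn (dark blue) fills nearly all of the wild-type bars at sums of 107 to 117, and Ogn (dark orange) fills most of the bars of Gmppb-KO replicates 2 and 3.

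Genes with the profile most like a member were sought among 8229 tested genes whose mean reached 10 CPM, by the root mean square difference of log2 CPM over the 6 libraries after centring each gene on its mean. For Bgn the closest were Adgrg3 (0.0981), an adhesion receptor gene, Jag2 (0.134), a Notch ligand gene, Col6a1 (0.150), a chain of type VI collagen, and Vgll2 (0.168), a muscle cofactor of TEAD factors. Jag2, for example, had 53.0, 57.1 and 62.3 CPM in the wild-type set and 9.36, 9.35 and 10.6 CPM in the knockout set. For Dcn they were Epha1 (0.308), an ephrin receptor gene, Fuca2 (0.323), a secreted fucosidase gene, Col16a1 (0.340), a fibril-associated collagen gene, and Adamts1 (0.397), a protease gene. Epha1 had 10.3, 8.5 and 18.8 CPM in the wild-type set and 54.3, 43.8 and 56.8 CPM in the knockout set. For Ogn, a search added after its values were seen gave less close profiles, Dynlt3 (0.577), Inhba (0.598), Ifi202b (0.626) and Smc2 (0.867). Dynlt3, a dynein light chain gene, had 16.3, 18.9 and 14.4 CPM in the wild-type set and 14.4, 87.0 and 145 CPM in the knockout set. It too was near the wild-type level in Gmppb-KO replicate 1 alone, which follows from its being picked for likeness to Ogn.

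Around the family, 102 genes in 7 lists cover other members of the family and the genes that build, sulfate, bind or cut them. Of these 77 were tested, 9 rose and 6 fell, counting Ecm2, Papss2 and Tnxb, which passed the low-count filter only through the group where they are high. The median log2 fold change of all tested genes was 0.11, and the share called among all tested genes was 5.59%. Of 9 other family members, 4 were tested, with a median log2 fold change of 0.30. Besides Ecm2, which rose, Chadl, a relative of Chad that restrains collagen fibril formation in cartilage, fell. Chadl had 3.56, 4.32 and 2.40 CPM in the wild-type set and 0.598, 0.952 and 0.613 CPM in the knockout set (log2 fold change -2.24 ± 0.43 SE, edgeR adjusted p = 0.0204, range 0.000293 to 0.102 over the alternatives). Its groups did not overlap, and its call was lost without wild-type replicate 1, wild-type replicate 2, Gmppb-KO replicate 1 or Gmppb-KO replicate 2. Podnl1 and Tsku, named after their values were seen, were not called. Podnl1 lay wholly lower in Gmppb-KO (log2 fold change -0.63 ± 0.26 SE, edgeR adjusted p = 0.229). Tsku lay wholly higher (log2 fold change 1.24 ± 0.30 SE, edgeR adjusted p = 0.0538). Across all tested genes, 13.1% lay wholly higher and 13% wholly lower.

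The enzymes of the chondroitin and dermatan chains showed 1 rise and 1 fall among 20 tested of 23, with a median of 0.41. Chst7, which adds sulfate to carbon 6 of N-acetylgalactosamine in chondroitin, had 6.12, 7.62 and 8.08 CPM in the wild-type set. It had 32.4, 27.8 and 17 CPM in the knockout set, a rise of 3.54-fold (log2 fold change 1.82 ± 0.31 SE, edgeR adjusted p = 0.0115, range 1.49e-05 to 0.0806 over the alternatives). Leaving out either wild-type replicate 1 or replicate 2 of the knockouts ended this call. Chst15, which adds a further sulfate to chondroitin already sulfated at carbon 4, had 8.14, 6.61 and 8.13 CPM in the wild-type set. It had 1.09, 1.12 and 1.84 CPM in the knockout set, a fall of 5.61-fold (log2 fold change -2.49 ± 0.36 SE, edgeR adjusted p = 0.00596, below 0.05 in all alternatives). The 2 sulfotransferase genes thus moved apart, each with no overlap between groups.

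None of 7 tested keratan chain and tyrosine sulfation genes of 10 passed the test, with 1 at an unadjusted p under 0.05 in edgeR and 0 called by DESeq2 or limma voom. The share of all tested genes under that unadjusted p was not counted. The 3 with the smallest unadjusted p had log2 fold changes of 0.65 for B4galt1, which adds galactose, 0.40 for B3gnt2, which extends lactosamine chains, and 0.15 for Chst1, a keratan sulfotransferase. Of the 10 genes that supply nucleotide sugars and sulfate, all tested, 2 rose and 0 fell, with a median of 0.47. Ugp2, which makes UDP-glucose, had 74.8, 71.5 and 57.5 CPM in the wild-type set and 117, 197 and 229 CPM in the knockout set (log2 fold change 1.41 ± 0.27 SE, edgeR adjusted p = 0.0203, range 0.000464 to 0.0928 over the alternatives). Papss2, which makes the active sulfate donor, had 0.238, 0.337 and 0.527 CPM in the wild-type set and 1.47, 2.30 and 2.97 CPM in the knockout set (log2 fold change 2.59 ± 0.51 SE, edgeR adjusted p = 0.0233, range 0.00267 to 0.139). With 4, 5 and 9 wild-type counts, Papss2 entered the fit only through the Gmppb-KO libraries and so had to differ. Both calls were lost without wild-type replicate 1, wild-type replicate 2 or Gmppb-KO replicate 2, that of Ugp2 also without wild-type replicate 3, and that of Papss2 also without Gmppb-KO replicate 3.

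**Figure D5:**
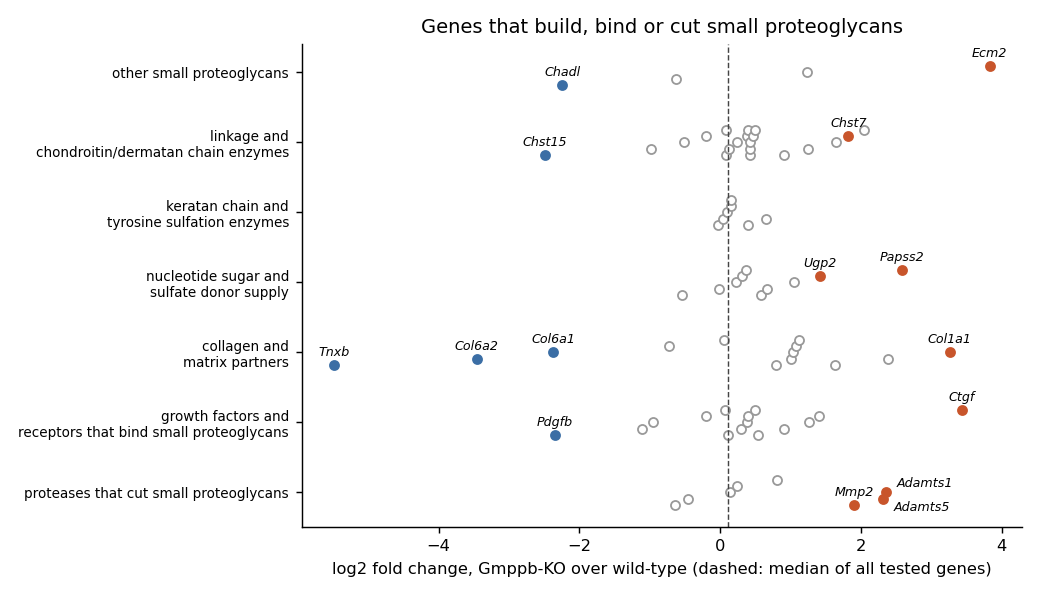
Log2 fold change of Gmppb-KO over wild-type for the 77 tested genes of the 7 lists, 1 list a row; filled orange points rose and filled blue points fell at an edgeR adjusted p under 0.05, open points did not pass, and the dashed line is the median of all tested genes at 0.11. Each of the lists of other family members, chain enzymes, matrix partners and growth factors holds genes on both sides, while the called proteases and donor genes are all to the right.

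Of 16 collagens and matrix partners that small proteoglycans bind, 13 were tested, and edgeR called 1 higher and 3 lower, with a median of 1.01. The unadjusted edgeR p was under 0.05 for 12, and groups did not overlap for 10. The share of all tested genes under that unadjusted p was not counted, so nothing is read from the 12. Across all tested genes, 13.1% lay wholly higher and 13% wholly lower. Col1a2, Col3a1, Col5a2, Col12a1 and Col14a1, named after their values were seen, lay wholly higher in Gmppb-KO without a call. Col14a1 passed the low-count filter only through those libraries. Col5a3 lay wholly lower, also without a call. Col1a1, the type I collagen chain bound by decorin, rose 9.59-fold (log2 fold change 3.26 ± 0.29 SE, edgeR adjusted p = 0.000577). Col6a1 and Col6a2, chains of the type VI collagen bound by biglycan and decorin, fell 5.17-fold and 11-fold (log2 fold changes -2.37 ± 0.21 and -3.46 ± 0.21 SE, edgeR adjusted p = 0.000639 and 0.000147). Col6a3, the remaining chain in this list, had 67.1, 50.7 and 100.5 CPM in the wild-type set and 145, 93.1 and 222 CPM in the knockout set, with overlap between groups, and did not pass (adjusted p = 0.153); it is named after its value was seen. Tnxb, which encodes tenascin X, had 15, 17 and 21 counts in the wild-type set and 1, 0 and 0 counts in the knockout set. The ratio of wild-type to Gmppb-KO was 62.5 with a 95% counting interval of 10.7 to 2513, and Tnxb was called lower (edgeR adjusted p = 0.00717), although it entered the fit only through the wild-type libraries and so had to differ. The 4 calls held in every alternative in which the gene was tested.

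Among 15 tested of 20 growth factors and receptors that bind small proteoglycans, 1 rose and 1 fell, with a median of 0.38. Ctgf, a matricellular factor that binds decorin, had 35.2, 27.1 and 22.9 CPM in the wild-type set and 295, 265 and 359 CPM in the knockout set (log2 fold change 3.43 ± 0.25 SE, edgeR adjusted p = 0.000359). Pdgfb, a growth factor gene, had 5.88, 5.60 and 6.5 CPM in the wild-type set and 1.31, 1.23 and 0.990 CPM in the knockout set (log2 fold change -2.34 ± 0.34 SE, edgeR adjusted p = 0.00558). Both calls held in all alternatives. The TGF-beta genes and their receptors did not pass the test. Tgfb1 and Tgfb2, named after their values were seen, differed in opposite directions without overlap between groups. Tgfb1 lay wholly lower in Gmppb-KO (log2 fold change -1.11 ± 0.30 SE, edgeR adjusted p = 0.0808). Tgfb2 lay wholly higher (log2 fold change 1.41 ± 0.39 SE, edgeR adjusted p = 0.0846). For Tgfb3, Tgfbr1 and Tgfbr2 the groups overlapped.

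Of 14 proteases and helpers that cut small proteoglycans, 8 were tested, 3 rose and 0 fell, with a median of 0.52. Mmp2, a gelatinase that can cleave decorin, had 83.0, 76.8 and 116 CPM in the wild-type set and 375, 297 and 358 CPM in the knockout set (log2 fold change 1.90 ± 0.23 SE, edgeR adjusted p = 0.00280), and its call held in all alternatives. Adamts1 and Adamts5, proteases of chondroitin sulfate proteoglycans, rose 5.11-fold and 4.96-fold (edgeR adjusted p = 0.0179 and 0.0300). Gmppb-KO replicate 3 was the highest for both, at 49.9 and 57.9 CPM against 16.6 to 21.2 CPM in the other Gmppb-KO libraries. The call of Adamts1 was lost without wild-type replicate 1 or 2, and that of Adamts5 without any 1 wild-type library, in limma voom and under library size scaling.

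Markers of the cell types that make small proteoglycans in tissue were read beside these values. Of 10 fibroblast and fibro-adipogenic markers, 6 were tested, 1 rose (Mfap5) and 2 fell (Pdgfrb and Osr1), where 5.59% of all tested genes were called. Osr1 passed the low-count filter only through the wild-type libraries and so had to differ. The summed list ranged from 508 to 612 CPM in wild-type and from 758 to 975 CPM in Gmppb-KO libraries, while the median log2 fold change of its tested genes was -0.29. Ly6a, which was not called (edgeR adjusted p = 0.0920), made up most of that sum, at 343 to 469 CPM in wild-type and 627 to 825 CPM in Gmppb-KO libraries. In this list Tcf21 was at 0 in all libraries and Thy1, Dpt and Pi16 at under 8 counts a library. Tenocyte markers summed to between 396 and 447 CPM in wild-type and between 253 and 296 CPM in Gmppb-KO libraries, with Thbs4 at 0. Osteoblast and chondrocyte markers summed to 43.7 to 61.1 CPM in wild-type and 29.2 to 51.8 CPM in Gmppb-KO libraries, with Ibsp, Acan, Matn1 and Col9a1 at 0. Of 3 tested tenocyte and 2 tested osteoblast and chondrocyte markers, edgeR called 0, with 2 and 0 at an unadjusted p under 0.05. The share of all tested genes under that unadjusted p was not counted. Adipocyte markers summed to 17.4 to 18.4 CPM in wild-type and 37.7 to 76.3 CPM in Gmppb-KO libraries, where Lpl and Fabp4 rose, Fabp4 from 0 wild-type counts and so tested only through the Gmppb-KO libraries, while Adipoq and Plin1 were at 0. Smooth muscle and endothelial markers stayed at 6.0 CPM or less and leukocyte markers likewise, with Rgs5, Pecam1, Cdh5, Cd3e and Adgre1 at 0. What these markers account for in the values of the proteoglycan genes was not tested.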

How the data were processed

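RNA-seq of 3 wild-type and 3 Gmppb-KO C2C12 libraries was used, with groups and replicate numbers from the sample titles. The authors deposited whole read counts per gene, 1 column per library and not normalized, per the file headers. The same table holds the authors' FPKM, per the file headers; these equalled the count per kilobase of deposited gene length divided by 1 constant per library. The deposited gene length was used only in that check and to place genes. Per the submitters' processing notes, HISAT2, featureCounts of Subread, DESeq2 and FastQC were used on build mm10. Which annotation release and strand setting it used was not given in the sources used here. Where reads of overlapping genes cannot be told apart by strand, counts of both may be affected. The 201 unnamed loci, 0.0699% to 0.195% of a library's counts, entered neither library sizes nor tests.

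Counts of named genes were fitted in R 4.3.3 with edgeR 4.0.16 (TMM scaling, filterByExpr, quasi-likelihood F test, 2-sided, group as the only term), adjusted by Benjamini-Hochberg over 12786 genes, with a threshold of 0.05. CPM are counts over the scaled library size, with mean ± SD over n = 3; the SE of a log2 fold change came from the F statistic. Ratios for groups with 1 to 3 counts have exact 95% binomial intervals, and these and the 3-count limit cover counting error only. The steps were tested on simulated counts. Alternatives were DESeq2 1.42.0, limma 3.58.1 (voom), 3 other scalings, 2 other filters, a replicate block and leaving out each library. Of each list, the text names up to 4 genes past the threshold with the smallest adjusted p, or up to 3 by unadjusted p where none passed, besides the nearest tested neighbours of each member. Likeness used log2 of CPM plus 0.5. Promoters are RefSeq sequences of GRCm38.p6. The members, lists and tests were chosen with earlier results of these data known.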

Additional observations from a re-analysis of the deposited data

How the results depend on the processing

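Leaving out 1 library changed many calls. Genes called ranged from 331 to 749 (higher 119 to 353, lower 212 to 458), and proteoglycan members called higher from 1 to 5, with Bgn the 1 called lower throughout. The ranges of list counts were 0 to 1 (higher) and 0 to 1 (lower) for other family members, 0 to 3 higher for chain enzymes, 0 to 2 higher for donor supply, 1 to 2 higher for collagens, 1 to 2 lower for growth factors and 1 to 4 higher for proteases. DESeq2 called 1295 genes (528 higher, 767 lower). It called 2 other family members, 3 chain enzymes, 5 collagens and 2 growth factor genes higher, and 2 growth factor genes lower. The fit with the replicate block called 1618 genes (673 higher, 945 lower), 2 other family members, 7 collagens and 2 growth factor genes higher, and 2 growth factor genes and 1 protease lower. Same-numbered libraries of the groups correlated at -0.18, 0.51 and 0.42 in their deviations, and differently numbered ones at -0.54 to 0.29. The labels state no pairing, so the main fit did not take the numbers as pairs. Whether same-numbered libraries share an effect was not tested. Limma voom called 2 proteoglycan members and 2 other family members higher. With every gene of a count sum above 1 tested, 2 other family members, 2 chain enzymes and 3 collagens were higher and 2 growth factor genes lower. With at least 1 CPM required in 3 libraries, 0 other family members were higher, as Ecm2 was not tested. Log2 fold changes of members kept their sign in all alternatives, running from 2.77 to 4.01 for Ogn, 3.14 to 4.3 for Omd and 4.58 to 6.06 for Aspn. Chst1, not called, reversed to -0.0326 without wild-type replicate 2, with a leave-one-out range of -0.0326 to 0.249. Library size scaling moved the median of all genes by 0.16, and leaving out Gmppb-KO replicate 3 moved it by -0.13. With 3 libraries a group and under 10 counts in wild-type libraries, the fold changes of Aspn and Omd are imprecise, and absence of Lum and Kera is limited to 3 counts a library. Other causes of these differences were not tested.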
